A study of Mus musculus with 12 samples.

Results

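Livers of mice labelled E2f2 knockout were set directly against livers of mice labelled E2f1 knockout, which left wild type livers as a level beside each gene rather than as the control. The comparison takes 8 of the 12 livers of the series, 4 in each group, picked by the genotype in their titles, and describes all 20095 genes measured above background. The labels give the genotypes as E2f2-/- and E2f1-/- and the strain of the wild type mice as 129/Sv x C57BL/6. The labels used here name no strain for either knockout line, nor the deleted part of each gene, nor the sex of the mice. By the treatment protocol, mice of all groups received the liver carcinogen diethylnitrosamine (DEN) at 25 mg/kg by intraperitoneal injection on postnatal day 14, were weaned at 1 month, were then fed for 32 weeks on a high-fat diet that drew 60% of its calories from fat, and were 9 months old when killed following a 4 hour fast. Titles, descriptions and characteristics of the E2f1 knockout mice state this DEN and high-fat treatment, while their source field states vehicle and chow. The labels do not settle the conflict, so every difference below carries it.

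E2F1 and E2F2 are transcription factors that pair with a DP protein, are held inactive by the retinoblastoma protein and switch on genes of DNA replication and cell division when cyclin-dependent kinases release them. In the liver, E2F1 is also known for a part in lipid and glucose metabolism. The direct comparison asks where the livers labelled as lacking one or the other factor differ.

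RNA of 1 liver was hybridised to each one-colour array, and the labels give separate mice, so the spread is that between animals. A level is the log2 of a probe's signal after subtraction of its array's 75th percentile on that scale, and a difference is the E2f2-labelled mean minus the E2f1-labelled mean. Each difference is given ± its standard error (SE), from n = 4 livers a side. Adjusted p values come from limma with Benjamini-Hochberg adjustment over all genes tested, and a gene below 0.05 is called, which is what "rose" and "fell" mean here. The 75th percentile lay between 107.7 and 162.6 intensity units, and between 44.7% and 53.1% of probes were well above background. Across genes, which are not independent replicates, the 12 array pairs inside a group had r of 0.979 to 0.988 and the 16 pairs across groups 0.967 to 0.978. Every slide carried 1 liver per group, always E2f1-labelled at position 3 and E2f2-labelled at position 4, so slide position cannot be told apart from group. The number of arrays limits the precision. The tissue label held: Alb stood at or above percentile 99.8 and the hepatocyte receptor gene Asgr1 at or above percentile 94.4 of all genes on each of the 12 arrays. In bulk liver, fewer cells of a type and less RNA per cell cannot be told apart.

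The targeted genes did not follow the labels in both groups. The E2f1 probe (chromosome 2, mm9 positions 154385798 to 154385857) read -0.55, -0.72, -0.47 and -0.62 in E2f1-labelled livers against -0.33, -0.02, 0.23 and 0.31 in E2f2-labelled livers, with a wild type mean of 0.24. The ranges did not overlap, and the difference was 0.64 ± 0.17 (adjusted p = 0.111, not called). The E2f2 probe (chromosome 4, mm9 positions 135750562 to 135750621) read -0.03, -0.91, -0.69 and -0.48 in E2f1-labelled livers against 0.35, 0.88, 0.88 and 0.66 in E2f2-labelled livers, with a wild type mean of 0.98. E2f2 RNA was thus higher, not lower, in the livers labelled E2f2 knockout, by 1.22 ± 0.21 (adjusted p = 0.0203). The call ended with the slide as a block (adjusted p = 0.0731) and without E2f1-labelled replicate 2 (0.0503), 3 (0.0724) or 4 (0.0542) or E2f2-labelled replicate 2 (0.0693), 3 (0.0549) or 4 (0.0582). The deletions are not mapped here onto the probes, and a probe that misses the deleted stretch is no check of the genotype. The groups are therefore called E2f1-labelled and E2f2-labelled livers throughout.

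Of 20095 genes, 402 were called (2.00%), 207 higher in E2f2-labelled livers (1.03%) and 195 lower (0.970%). Among them 310 differed by at least 2-fold (1.54%), 157 upward (0.781%) and 153 downward (0.761%), and the median difference over all genes was 0.01. Groups did not overlap for 1807 genes (8.99%), with E2f2-labelled livers above in 960 (4.78%) and below in 847 (4.21%), and 2710 genes had an unadjusted p under 0.05 (13.5%). Of the called genes, 400 differed in the same direction on 4 of 4 slides, but they were called on these same arrays, so the count is no test. Fewer genes were called without any 1 of the 8 arrays, from 243 without E2f1-labelled replicate 3 to 326 without E2f2-labelled replicate 3. Probes can also bind close copies of a gene, so for families of near-identical members, such as Ren2, H60a, Ifi202b, Ces1, Cyp2c, Cyp2a and the zinc finger genes below, the member is uncertain.

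**Figure D1:**
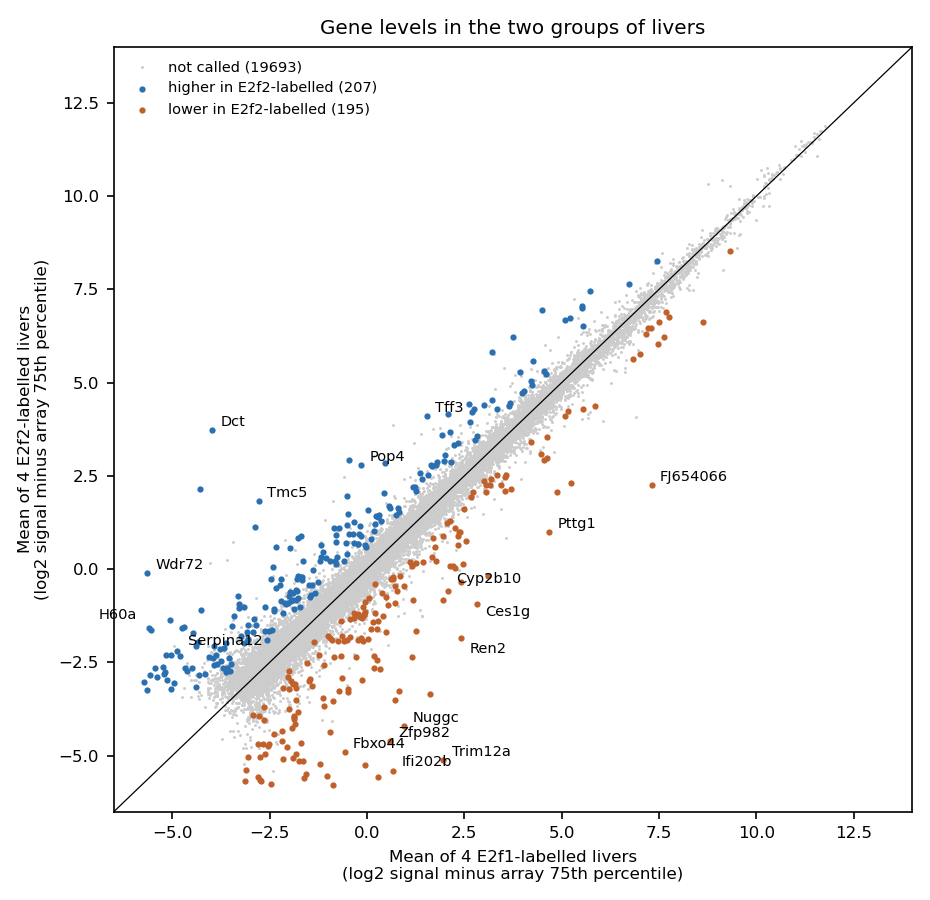
Mean level of each of the 20095 genes in E2f1-labelled livers (horizontal axis) and E2f2-labelled livers (vertical axis), both in log2 signal minus the array's 75th percentile. Grey points were not called, blue points are the 207 genes called higher and orange points the 195 called lower in E2f2-labelled livers, and the line marks equal levels.

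The largest differences were close to all or none. Dct, Wdr72, Tmc5 and H60a lead the rises, and Trim12a, Ifi202b, Zfp982 and Nuggc lead the falls. Of the 20095 genes tested, 32 were well above background on 4 of 4 E2f2-labelled arrays and 0 of 4 E2f1-labelled arrays, of which 27 were called. A second set of 36 genes showed the opposite pattern, of which 27 were called. Both sets were picked by this pattern and passed the filter through the bright group alone, so the counts of calls are no test. For a gene at 0 of 4 arrays in a group only a lower bound is given, the mean of the bright group over the higher of the dim probe's own signal and the lowest signal above background on each dim array. The bounds had a median of 2.38-fold and a maximum of 11.6-fold for the first set and a median of 3.41-fold and a maximum of 54.0-fold for the second.

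Dct encodes dopachrome tautomerase, an enzyme of melanin synthesis. Its levels were 3.94, 4.26, 3.97 and 2.71 in E2f2-labelled livers and -3.88, -4.71, -2.07 and -5.21 in E2f1-labelled livers, where 1 of 4 arrays was above background, and wild type livers lay between the groups at 0.64 ± 1.51 (SD). The difference was 7.69 ± 0.63 (adjusted p = 0.00024), and a second Dct probe gave 7.28. Over the alternative settings given below, the Dct difference ran from 4.55 to 8.32. Tmc5, a member of the transmembrane channel-like family, read 1.63, 2.66, 1.22 and 1.80 against -2.74, -2.02, -2.71 and -3.63, with wild type livers at 2.81 ± 1.43 (SD). It rose by 4.60 ± 0.38 (adjusted p = 0.00024), and its second probe gave 2.56. For both genes every E2f2-labelled liver exceeded every E2f1-labelled liver.

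Wdr72, which encodes a WD-repeat protein needed for tooth enamel, read 0.39, -0.16, -0.29 and -0.32 in E2f2-labelled livers and was above background on 0 of 4 E2f1-labelled and 0 of 4 wild type arrays. It was at least 11.6-fold higher (adjusted p = 7.41e-06). Serpina12, the serpin vaspin, read -1.79, -1.62, -1.34 and -1.60 and was at least 4.10-fold higher (adjusted p = 0.00387), again with 0 of 4 arrays above background in E2f1-labelled and wild type livers. Sema3e, a secreted guidance protein, shared that pattern at no less than 2.52-fold (adjusted p = 0.00829), as did Tm4sf20 at no less than 4.83-fold (adjusted p = 0.0326). The Tm4sf20 call ended without any 1 of 6 livers (adjusted p up to 0.106) and with normexp (0.0799), and Sema3e was not called with normexp (adjusted p = 0.0844), a background correction that shrinks dim signals towards an offset.

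In other rises the E2f1-labelled livers stood farther from wild type than the E2f2-labelled livers did. H60a, which encodes a ligand of the natural killer cell receptor NKG2D, read -0.85, -1.01, -1.97 and -2.46 in E2f2-labelled livers, -0.92 ± 0.65 (SD) in wild type livers and was above background on 0 of 4 E2f1-labelled arrays. It was at least 4.15-fold higher (adjusted p = 0.000559). Its relative H60b was at least 1.95-fold higher (adjusted p = 0.00179), above background on 3 of 4 E2f2-labelled and 4 of 4 wild type arrays. Samd4, an RNA-binding repressor of translation, was at least 2.50-fold higher (adjusted p = 0.000245). Pop4 encodes a subunit of RNase P, which trims transfer RNA, and read 2.85, 2.75, 2.98 and 2.62 against -0.07, -0.22, -0.06 and -0.21, with wild type livers between at 1.90 ± 0.54 (SD). The Pop4 difference was 2.94 ± 0.13 (adjusted p = 7.26e-06), and against wild type it was 0.90 in E2f2-labelled livers (adjusted p = 0.0163) and -2.04 in E2f1-labelled livers (adjusted p = 0.000334). Sall2, a zinc finger transcription factor, rose by 3.16 ± 0.46 (adjusted p = 0.00728), with 1 of 4 E2f1-labelled arrays above background. Over the alternatives the Sall2 difference ran from 0.87 to 3.42, so its size is uncertain. With normexp background correction H60b (adjusted p = 0.196) and Samd4 (adjusted p = 0.084) were not called.

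Among the falls, Trim12a, of the tripartite motif family that restricts retroviruses, read -5.29, -4.67, -5.44 and -5.08 in E2f2-labelled livers, with 0 of 4 arrays above background. It was above background on every array of the other groups, at 2.16, 2.10, 1.76 and 1.84 in E2f1-labelled livers and 2.48 ± 0.15 (SD) in wild type livers. Trim12a was at least 54.0-fold lower (adjusted p = 3.31e-07). Fbxo44, a substrate adaptor of a ubiquitin ligase, was at least 9.26-fold lower (adjusted p = 0.000334), with E2f1-labelled values from -0.65 to -0.44 and a wild type mean of -0.59. Rab6b, a small GTPase of vesicle transport, was at least 4.55-fold lower (adjusted p = 0.00286), above background on 3 of 4 E2f1-labelled and 4 of 4 wild type arrays. Zfp982 was at least 19.6-fold lower (adjusted p = 4.08e-05), with E2f1-labelled values of 0.96, 0.73, 0.48 and 0.17 and wild type values from -2.39 to 0.23. Rab6b was not called with normexp background correction (adjusted p = 0.126).

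Ifi202b showed the reverse arrangement, above background only in E2f1-labelled livers. This interferon-inducible gene of the p200 family, whose level is known to vary between inbred mouse strains, read 1.05, 1.05, 0.38 and 0.21 there, and 0 of 4 arrays were above background in E2f2-labelled and in wild type livers. It was at least 22.1-fold lower in E2f2-labelled livers (adjusted p = 2.08e-05). Nuggc, a nuclear GTPase of germinal centre B cells, read 1.86, 1.37, 1.21 and -0.57 in E2f1-labelled livers and was above background on 1 of 4 E2f2-labelled and 0 of 4 wild type arrays, a difference of -5.16 ± 0.57 (adjusted p = 0.00154). Over the alternatives the Nuggc difference ran from -5.67 to -2.39. Mme, which encodes the peptidase neprilysin, was at least 3.92-fold lower (adjusted p = 0.000976), above background in E2f1-labelled livers only. With normexp background correction Mme missed the threshold (adjusted p = 0.0511).

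Further large falls included Pttg1, Abhd1, Ren2, Tmc7 and Clec2h. Pttg1, Abhd1 and Ren2 were above background on 4 of 4 arrays of each group, and Clec2h on 3 of 4 E2f2-labelled and 4 of 4 E2f1-labelled arrays. Pttg1 encodes securin, the inhibitor of the protease that parts sister chromatids, and read 0.87, 1.06, 1.15 and 0.90 in E2f2-labelled livers against 4.71, 4.60, 4.90 and 4.50 in E2f1-labelled livers. The wild type mean of 2.15 lay between them, and the difference was -3.68 ± 0.14 (adjusted p = 2.42e-06), with a second probe at -3.21. Abhd1, a hydrolase-fold protein, read -0.35, -0.31, 0.37 and -0.40 against 2.77, 3.06, 3.55 and 3.07 and fell by 3.29 ± 0.22 on the log2 scale (adjusted p = 0.0001). Ren2, one of the mouse renin genes, read -1.70, -1.77, -1.97 and -1.97 against 2.70, 1.21, 2.08 and 3.71, a difference of -4.28 ± 0.44 (adjusted p = 0.000976). Tmc7, a relative of Tmc5, fell by 4.09 ± 0.60 (adjusted p = 0.00834), the opposite direction to Tmc5, although both lie on chromosome 7, with mm9 probe starts at 125818347 for Tmc5 and 125679512 for Tmc7. Clec2h, a C-type lectin, fell by 3.02 ± 0.31 (adjusted p = 0.000955), but was not called in the fit of all 12 arrays (adjusted p = 0.0592).

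**Figure D2:**
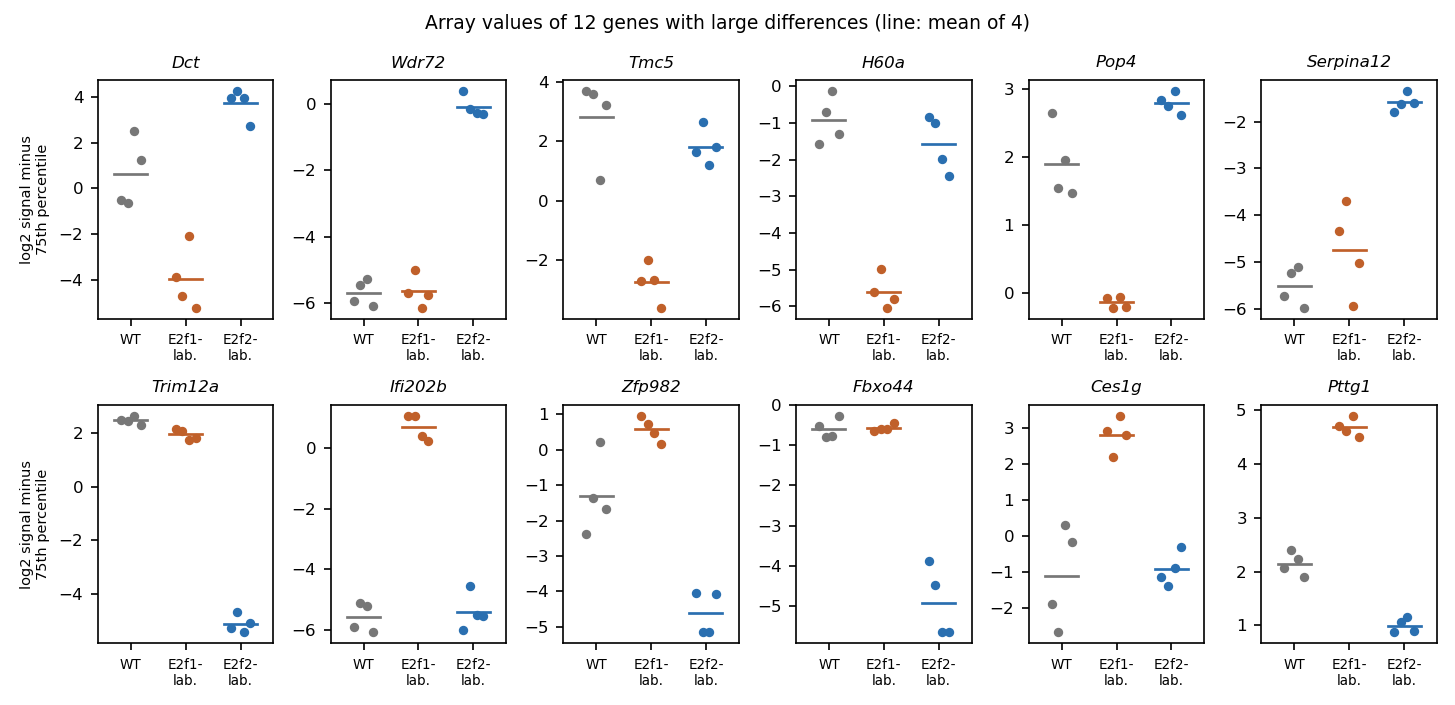
Level of 12 genes on each array, in log2 signal minus the array's 75th percentile, for 4 wild type (grey), 4 E2f1-labelled (orange) and 4 E2f2-labelled (blue) livers, with lines at group means and a separate vertical scale per gene. In each of the 12 the orange and blue points do not overlap, and the wild type mean lies nearer the orange mean for Wdr72, Trim12a and Fbxo44 and nearer the blue mean for H60a, Ifi202b and Ces1g.

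The 46 gene lists were drawn from general knowledge of liver, the cell cycle and tissue cell types. Their counts are to be read beside the shares of all genes. Of these 1.03% were called higher, 0.970% were called lower and 13.5% had an unadjusted p under 0.05. The cell cycle lists held no called gene besides E2f2. Cell cycle genes outside these lists were called, among them Pttg1, Cenpm and Ccnf, picked here after their values were seen. The absence of calls therefore holds for the listed members only. Of 20 tested mitosis and G2/M genes 0 were called by limma and 2 had an unadjusted p under 0.05, with a median difference of -0.15, and the slide medians ran from -0.65 to 0.51. Mki67, the proliferation marker, differed by -0.46 ± 0.39 (adjusted p = 0.694) and Ccnb1, the cyclin of mitotic entry, by -0.15 ± 0.47 (adjusted p = 0.94). Of 38 tested E2F targets of DNA replication 0 were called and 6 had an unadjusted p under 0.05, with a median of -0.12 and slide medians from -0.15 to -0.02. Mcm2 (-0.33 ± 0.29, adjusted p = 0.708), Mcm3 (0.32 ± 0.22, adjusted p = 0.614) and Mcm4 (-0.20 ± 0.22, adjusted p = 0.787), subunits of the replicative helicase, were not called. A second Mcm3 probe gave -1.30, and with normexp background correction Mcm3 was called lower, at -0.87 (adjusted p = 0.0329). Of 24 genes of the E2F, DP and RB family and its kinases and inhibitors 1 was called, E2f2 itself, and the list median was 0.13. Of 24 p53 target genes 1 fell, Tnfrsf10b, the mouse TRAIL death receptor, which read -2.20, -1.92, -2.74 and -2.44 against -0.34, -0.82, -0.66 and -0.81 (difference -1.67 ± 0.20, adjusted p = 0.00257, and 0.168 in the fit of all 12 arrays).

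The promoter windows of the genes were searched for the E2F binding consensus. The letters TTTCCCGC, TTTCGCGC, TTTGCCGC and TTTGGCGC were sought on both strands in the 250 bases before each RefSeq start site. A match stood in 2.16% of 27025 genes with a promoter in the table, in 3.48% of the 11187 tested genes that could be matched to it, in 4 of 106 genes called higher (3.77%) and in 3 of 113 called lower (2.65%). Fewer than 80% of the tested and of the called genes had an entry in the table, so a comparison of these shares is void. Among the E2F targets of DNA replication 10 of 36 genes had a match (27.8%), of which 0 were called. The windows of E2f1 and E2f2 held 0 matches. The stretches around the 7 matches in called genes are printed because no other called gene with an entry in the table carries these letters, with the match in capitals. All are RefSeq sequence of the GRCm38.p6 assembly, 5′ to 3′ on the strand of the gene.
Rprd1b, chromosome 2, 158028447 to 158028496, plus strand: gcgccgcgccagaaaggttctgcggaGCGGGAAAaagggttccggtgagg
Pdf, chromosome 8, 107048615 to 107048667, minus strand: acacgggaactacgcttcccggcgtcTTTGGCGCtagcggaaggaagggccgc
Serinc2, chromosome 4, 130275221 to 130275258, minus strand: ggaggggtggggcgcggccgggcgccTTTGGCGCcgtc
Sfxn2, chromosome 19, 46573185 to 46573244, plus strand: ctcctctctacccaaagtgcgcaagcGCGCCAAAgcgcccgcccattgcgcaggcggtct
Cenpm, chromosome 15, 82244374 to 82244433, minus strand: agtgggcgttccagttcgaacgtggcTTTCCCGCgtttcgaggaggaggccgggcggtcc
Arhgef40, chromosome 14, 51984628 to 51984687, plus strand: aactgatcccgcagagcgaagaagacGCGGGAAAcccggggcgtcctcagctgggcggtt
Upp2, chromosome 2, 58567124 to 58567183, plus strand: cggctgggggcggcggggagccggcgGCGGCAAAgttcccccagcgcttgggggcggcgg
The first 4 were higher and the last 3 lower in E2f2-labelled livers, and apart from Rprd1b they were chosen after their values were seen. Rprd1b, which binds the tail of RNA polymerase II, rose by 1.66 ± 0.15 (adjusted p = 0.000559), Serinc2 by 1.41 ± 0.30 (adjusted p = 0.0483), the mitochondrial carrier Sfxn2 by 0.84 ± 0.14 (adjusted p = 0.013) and the mitochondrial deformylase Pdf by 0.70 ± 0.14 (adjusted p = 0.0334). Cenpm, a centromere protein, was at least 1.66-fold lower (adjusted p = 0.00348), above background on 3 of 4 E2f1-labelled and 0 of 4 E2f2-labelled arrays. Arhgef40 fell by 1.06 ± 0.16 on the log2 scale (adjusted p = 0.0104) and Upp2, uridine phosphorylase of the liver, by 1.10 ± 0.23 (adjusted p = 0.0469).

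**Figure D3:**
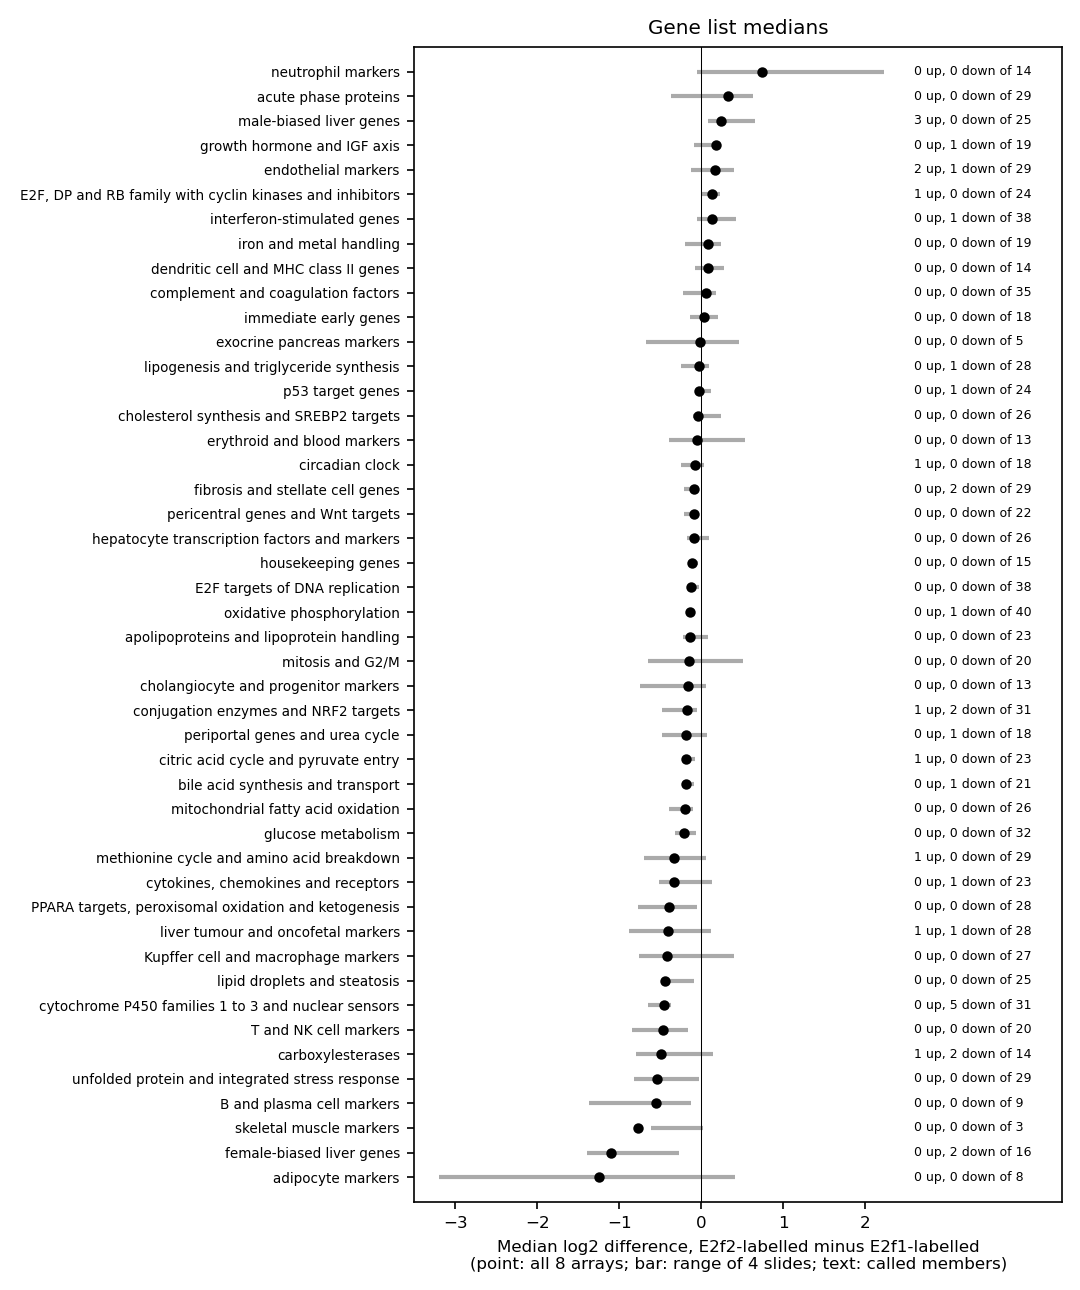
Median log2 difference (E2f2-labelled minus E2f1-labelled) of the tested members of each of 46 gene lists. Points use all 8 arrays, bars run from the lowest to the highest of the 4 within-slide medians, and the text at the right counts members called higher and lower, with 5 of 31 lower in the cytochrome P450 list as the highest count.

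Drug-metabolising cytochrome P450 genes were the list with the most calls. These enzymes oxidise drugs and steroids and are induced through the nuclear sensors CAR (Nr1i3) and PXR (Nr1i2). Of 31 tested members 5 fell and 0 rose, against 0.970% and 1.03% of all genes. Every E2f2-labelled value lay below every E2f1-labelled value in 10 members and above in 0, against 4.21% and 4.78% of all genes. The list median was -0.46 with slide medians from -0.65 to -0.37. Of 34 members on the array 31 were tested, and Cyp1b1, among those 10, passed the filter through E2f1-labelled livers alone. Such selection pulls the count without overlap and the median down, so neither is a test. Cyp2b10, the classical CAR target, read -1.44, -0.06, -1.01 and 0.13 in E2f2-labelled livers against 1.88, 1.87, 1.42 and 3.18 in E2f1-labelled livers and 3.96 ± 1.04 (SD) in wild type livers. It fell by 2.68 ± 0.44 on the log2 scale (adjusted p = 0.0149). Cyp2c39 read 2.95, 3.12, 3.15 and 3.09 against 4.43, 4.02, 4.74 and 4.66, a difference of -1.38 ± 0.18 (adjusted p = 0.00357, and 0.22 in the fit of all 12 arrays, where wild type values ran from 1.70 to 4.32). Cyp2c38 (-1.50 ± 0.27, adjusted p = 0.0238), Cyp2a4 (-1.41 ± 0.27, adjusted p = 0.0307) and Nr1i3 itself (-0.92 ± 0.18, adjusted p = 0.0334) were the other called members, and a second Cyp2c38 probe gave -5.32. These 3 calls each ended without any 1 of several livers, 4 for Cyp2c38, 6 for Cyp2a4 and 7 for Nr1i3, with adjusted p up to 0.0854, 0.089 and 0.0914, and the Cyp2a4 call also with the slide as a block (adjusted p = 0.0562). In the fit of all 12 arrays none of the 3 was called (adjusted p = 0.278, 0.1 and 0.546). With the slide as a block 7 members fell, among them Nr1i2 (-0.69, adjusted p = 0.0363, and 0.14 without the block). Cyp3a11, a PXR target chosen here after its values were seen, differed by -2.85 ± 0.69 without passing (adjusted p = 0.0845). Outside the list Cyp3a59, of the same family as Cyp3a11, differed by -1.61 ± 0.32 (adjusted p = 0.039, 0.0871 with the block, 0.123 in the fit of all 12 arrays, and up to 0.117 with 1 of 7 livers left out).

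Carboxylesterases, which hydrolyse drugs and lipid esters, split. Ces1g, known for hydrolysis of triglycerides in the liver, read -1.15, -1.38, -0.88 and -0.31 in E2f2-labelled livers against 2.92, 2.20, 3.35 and 2.81 in E2f1-labelled livers. Wild type livers at -1.11 ± 1.41 (SD) lay with the E2f2-labelled ones, and Ces1g fell by 3.75 ± 0.29 on the log2 scale (adjusted p = 0.000201). Ces4a read -0.09, 0.07, 0.26 and -0.03 against -2.95, -1.46, -1.79 and -3.40 and rose by 2.45 ± 0.39 (adjusted p = 0.0125), with wild type livers at -2.35. Ces1c fell by 0.99 ± 0.20 (adjusted p = 0.0413), a call that ended without any 1 of 7 livers (adjusted p up to 0.12) and in the fit of all 12 arrays (0.106). Of 14 tested members 1 rose and 2 fell. Among conjugation enzymes and NRF2 targets 1 rose and 2 fell of 31. Sult1e1, the estrogen sulfotransferase, read -1.81, -0.72, -4.41 and -2.50 against 1.75, 0.59, 1.25 and 1.07, a difference of -3.52 ± 0.66 (adjusted p = 0.0289, 0.061 with the slide as a block, and up to 0.0979 with 1 of 6 livers left out). The other 2, Gsta3 (-0.77 ± 0.15) and Gsr (0.70 ± 0.15), a glutathione transferase and the glutathione reductase, passed narrowly (adjusted p = 0.039 and 0.0479), and each call ended without any 1 of 7 livers (adjusted p up to 0.109 and 0.14), and in the fit of all 12 arrays (0.302 and 0.0568). The Gsr call also ended with the block (0.0591), with normexp (0.127) and with the mean of its probes (0.208).

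Genes with a sex bias in mouse liver, which the pattern of growth hormone release sets, had 5 called members. Of 25 male-biased genes 3 rose and 0 fell, 17 had a positive difference, the range was -2.38 to 3.16 and the median 0.24, with slide medians from 0.08 to 0.65. With the slide as a block 2 rose and 1 fell, Cyp2d9 (-0.69, adjusted p = 0.039, and 0.204 without the block). Besides Serpina12 these were Serpina4-ps1, which read 6.57, 7.35, 7.03 and 6.80 against 5.01, 4.81, 4.93 and 3.29 (difference 2.43 ± 0.37, adjusted p = 0.0102, and 0.0973 in the fit of all 12 arrays), and Obp2a, at least 2.82-fold higher (adjusted p = 0.033, 0.0645 with the slide as a block, 0.195 with normexp and up to 0.0883 with 1 of 6 livers left out). Of 16 female-biased genes 2 fell and 0 rose, 1 had a positive difference, and the median was -1.10 with slide medians from -1.40 to -0.28, and -0.37 with normexp background correction. Atp6v0d2, a proton pump subunit, was at least 2.92-fold lower (adjusted p = 0.017), above background on 3 of 4 E2f1-labelled arrays, and Cyp2a4 was the other. The Atp6v0d2 call ended without any 1 of 4 livers (adjusted p up to 0.0672) and with normexp background correction (0.207). Of 24 female-biased genes on the array only 16 were tested, and Atp6v0d2, Cyp2b13 and Cyp2b9 passed the filter through E2f1-labelled livers alone. Such members pull the median and the sign count down by selection, so neither is a test. Likewise Serpina12 and Obp2a passed through E2f2-labelled livers alone, which pulls the male-biased list up. Cyp4a12a, a male-biased hydroxylase, differed by 1.44 ± 0.35 without passing (adjusted p = 0.088), although the groups did not overlap. Y-linked Ddx3y, Eif2s3y and Uty were above background on 4 of 4 arrays of each group, with differences of 0.00 ± 0.17, 0.02 ± 0.17 and 0.00 ± 0.18. In the growth hormone and IGF list 1 of 19 fell, Igfbp3, a carrier of IGF1, by 0.72 ± 0.15 (adjusted p = 0.044), and Ghr, the growth hormone receptor, differed by -0.35 ± 0.19 (adjusted p = 0.467). The Igfbp3 call ended without any 1 of 7 livers (adjusted p up to 0.11), with normexp background correction (0.648) and in the fit of all 12 arrays (0.502).

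Lists of fuel metabolism held few called members. Cpt2, the inner carnitine palmitoyltransferase of mitochondria that the study is known to follow, read 5.65, 5.82, 6.28 and 6.01 in E2f2-labelled livers and 5.71, 6.07, 6.16 and 5.82 in E2f1-labelled livers, overlapping throughout and above the wild type mean of 4.61. Its difference was 0.00 ± 0.18 (adjusted p = 0.997), while a second, dimmer Cpt2 probe gave -0.64. Of 26 genes of mitochondrial fatty acid oxidation 0 were called (3 with an unadjusted p under 0.05, median -0.20), and of 28 PPARA and peroxisomal genes 0 (5 with an unadjusted p under 0.05, median -0.39). Lipid droplet and steatosis genes had a median of -0.45 with 0 of 25 called and 5 with an unadjusted p under 0.05. Slide medians ran from -0.77 to -0.05 for the PPARA list and from -0.46 to -0.09 for the lipid droplet list, both lowest on slide 2. In triglyceride synthesis Lpin2, a phosphatidate phosphatase, read 1.85, 2.05, 2.71 and 2.04 against 3.34, 3.99, 3.84 and 3.59 and fell by 1.53 ± 0.22 on the log2 scale (adjusted p = 0.00728), 1 of 28 in its list. A second Lpin2 probe gave -0.73. Acly and Srebf1, an enzyme and a regulator of lipogenesis, differed by -0.12 ± 0.24 and 0.15 ± 0.32 (adjusted p = 0.901 and 0.91).

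Several further lists had 1 called member. Of 29 genes of the methionine cycle and amino acid breakdown 1 rose, 6 had a positive difference and 10 an unadjusted p under 0.05. The median was -0.33, with slide medians from -0.69 to 0.055. Among 40 genes of oxidative phosphorylation 1 fell and 3 had a positive difference (median -0.14), and among 18 periportal and urea cycle genes 1 fell and 2 had a positive difference (median -0.18). Pdhb, the E1 beta subunit of pyruvate dehydrogenase, rose by 1.37 ± 0.19 (adjusted p = 0.00561), but 1 of its 3 probes gave -0.07 and the mean of the probes was not called (adjusted p = 0.267). Ahcy, which clears S-adenosylhomocysteine, rose by 1.59 ± 0.19 (adjusted p = 0.0027), but only 1 of its 3 probes was positive, the lowest gave -0.33 and their mean was not called (adjusted p = 0.396). Nr1d2, the clock repressor REV-ERB beta, read 2.82, 3.18, 2.94 and 2.55 against 1.63, 1.89, 1.83 and 1.91 and rose by 1.06 ± 0.16 (adjusted p = 0.0105), the only 1 of 18 clock genes called, while with the slide as a block Per2 was called as well (-0.70, adjusted p = 0.0428). A second Nr1d2 probe gave 0.45. Akr1d1, the bile acid pathway's steroid 5-beta-reductase, differed by -1.20 ± 0.23 (adjusted p = 0.0297, 0.0595 with the block, 0.0676 with normexp, 0.196 in the fit of all 12 arrays, and up to 0.0835 with 1 of 6 livers left out). Aldh1b1, a mitochondrial aldehyde dehydrogenase, fell by 1.38 ± 0.20 (adjusted p = 0.007, and 0.144 in the fit of all 12 arrays). Ndufb8, a subunit of respiratory complex I, fell by 0.76 ± 0.16 (adjusted p = 0.0477, and up to 0.141 with 1 of 7 livers left out).

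In the list of liver tumour and oncofetal markers 1 of 28 rose and 1 fell, 8 had an unadjusted p under 0.05 and 8 a positive difference, and the median was -0.40 with slide medians from -0.88 to 0.12. Tff3, a secreted trefoil peptide of mucosal surfaces, read 4.01, 4.77, 3.59 and 4.01 in E2f2-labelled livers against 2.00, 1.41, 0.82 and 1.96 in E2f1-labelled livers and 5.26 ± 1.17 (SD) in wild type livers, and rose by 2.55 ± 0.32 (adjusted p = 0.00313). Mmp7, a matrix protease, fell by 1.37 ± 0.24 (adjusted p = 0.0188), above background on 3 of 4 E2f2-labelled arrays, a call that ended without E2f1-labelled replicate 1 or 4 or E2f2-labelled replicate 4 (adjusted p up to 0.0625), with normexp background correction (0.266) and in the fit of all 12 arrays (0.0585). Afp, the fetal albumin-like protein, differed by -1.49 ± 0.54 (adjusted p = 0.257), Gpc3 by -1.76 ± 0.51 (adjusted p = 0.15) and H19 by -2.14 ± 0.84 (adjusted p = 0.303). The wild type means of these 3 genes, 4.93, 2.26 and 3.81, lay above the mean of either labelled group.

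**Figure D4:**
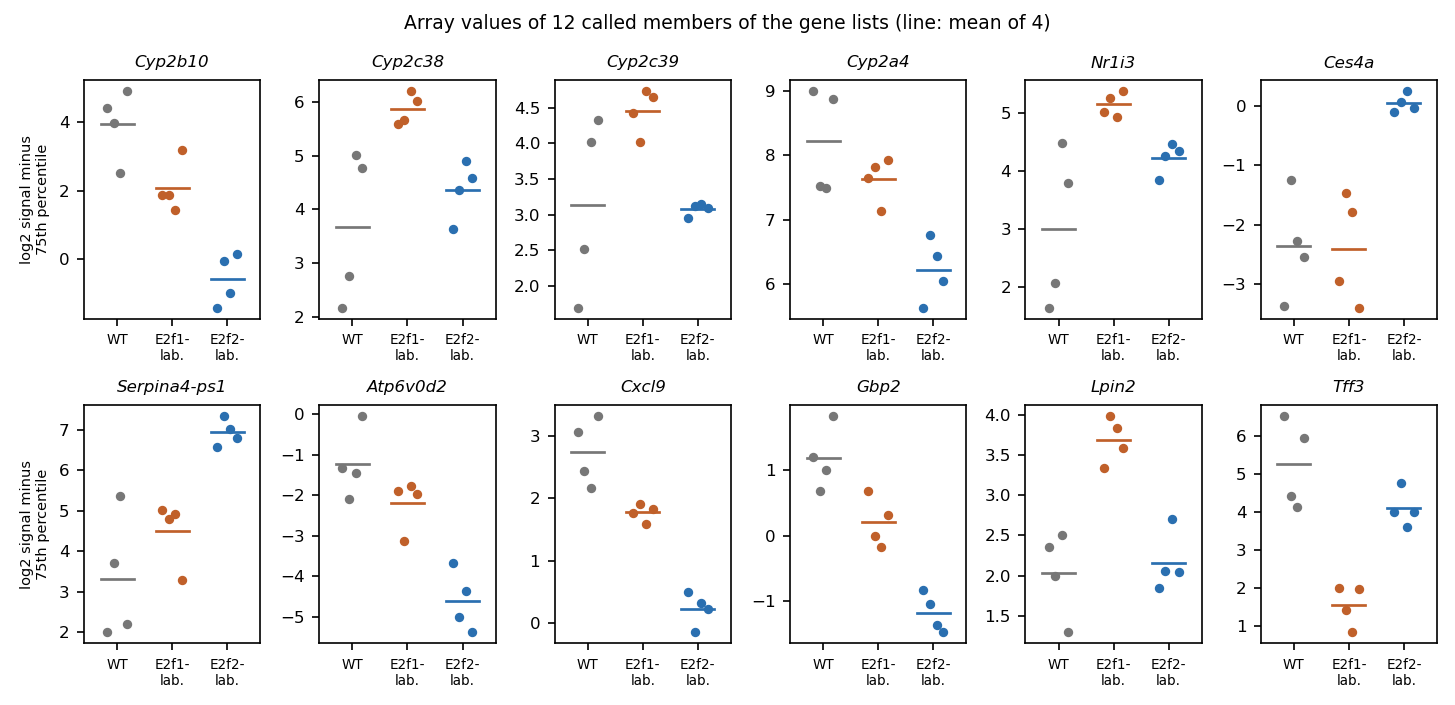
Level of 12 called members of the gene lists on each array, in log2 signal minus the array's 75th percentile, for 4 wild type (grey), 4 E2f1-labelled (orange) and 4 E2f2-labelled (blue) livers, with lines at group means and a separate vertical scale per gene. The E2f2-labelled points lie below the E2f1-labelled ones for Cyp2b10, Cyp2c38, Cyp2c39, Cyp2a4, Nr1i3, Atp6v0d2, Cxcl9, Gbp2 and Lpin2, and above them for Ces4a, Serpina4-ps1 and Tff3.

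Immune genes differed at few members. Cxcl9, the interferon-gamma-induced chemokine that draws T cells, read 0.49, -0.15, 0.32 and 0.22 against 1.76, 1.92, 1.60 and 1.83, with wild type livers at 2.75 ± 0.54 (SD), and fell by 1.56 ± 0.17 on the log2 scale (adjusted p = 0.00126), the 1 call among 23 cytokine and chemokine genes. Gbp2, an interferon-induced GTPase, read -0.82, -1.04, -1.36 and -1.47 against 0.68, -0.01, -0.17 and 0.32 and fell by 1.38 ± 0.22 (adjusted p = 0.0133), the 1 call among 38 interferon-stimulated genes, whose median was 0.13. For both genes each labelled group lay below the wild type mean and E2f2-labelled livers lay lowest. T and NK cell markers had 0 of 20 called (8 with an unadjusted p under 0.05), and the mean level of the list ran from -0.94 to -0.35 in E2f2-labelled and from -0.27 to 0.08 in E2f1-labelled livers, which do not overlap, and its median was -0.47 but -0.11 with normexp background correction. Whether fewer of these cells had a part in the Cxcl9 and Gbp2 differences was not tested. Cd3e, of the T cell receptor complex, differed by 0.06 ± 0.25 (adjusted p = 0.955). B and plasma cell markers had 0 of 9 called (4 with an unadjusted p under 0.05, median -0.55).

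Without the slide as a block, markers of neutrophils and macrophages, acute phase proteins and stress response genes had 0 called members. Neutrophil markers had a median of 0.74 with slide medians from -0.05 to 2.23, 0 of 14 called and 0 with an unadjusted p under 0.05. S100a8 and S100a9, the calprotectin subunits, differed by 1.04 ± 0.92 and 1.40 ± 0.88 (adjusted p = 0.718 and 0.569). Kupffer cell and macrophage markers had a median of -0.41 and 0 of 27 called (7 with an unadjusted p under 0.05), with Clec4f at -0.49 ± 0.22 (adjusted p = 0.373). Their slide medians ran from -0.76 to 0.40, and with the slide as a block Cd9 was called higher (0.81, adjusted p = 0.0439). Acute phase proteins had 0 of 29 called (2 with an unadjusted p under 0.05, median 0.33, slide medians from -0.37 to 0.63), and Saa1 differed by 1.57 ± 0.88 (adjusted p = 0.509). Hamp, the iron hormone hepcidin, differed by 1.92 ± 0.60 with no overlap between groups (adjusted p = 0.183), and its copy Hamp2 by -1.98 ± 0.56 (adjusted p = 0.142). Genes of the unfolded protein and integrated stress response had a median of -0.53 with 0 of 29 called and 9 with an unadjusted p under 0.05. Its mean level ran from 3.18 to 3.33 in E2f2-labelled and from 3.47 to 4.04 in E2f1-labelled livers without overlap, and the slide medians from -0.82 to -0.02. With the slide as a block Asns (-1.66, adjusted p = 0.00768) and Trib3 (-1.01, adjusted p = 0.0322), target genes of the stress factor ATF4, were called. Hspa5, the chaperone BiP, differed by -0.79 ± 0.28 (adjusted p = 0.245).

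Endothelial markers split in direction, with 2 of 29 higher and 1 lower. Dnase1l3, a secreted nuclease of sinusoidal endothelium and macrophages, read 1.35, 0.98, 1.80 and 0.99 against -0.64, 0.11, -0.26 and -0.51 and rose by 1.60 ± 0.23 (adjusted p = 0.00768). Bmp2, the endothelial signal that induces hepcidin, read 2.78, 2.78, 3.04 and 2.45 against 1.38, 2.08, 1.74 and 1.52 and rose by 1.08 ± 0.19 (adjusted p = 0.0229), a call that ended without any 1 of 6 livers (adjusted p up to 0.071). Esm1, a proteoglycan of sprouting endothelium, read -3.44, -1.33, -2.09 and -2.57 against 0.25, -0.03, -0.89 and -0.48, with wild type livers at 3.88 ± 1.06 (SD). Its difference was -2.07 ± 0.42 (adjusted p = 0.0418, 0.0766 with the slide as a block, 0.0807 in the fit of all 12 arrays, and up to 0.111 with 1 of 7 livers left out). Kdr and Pecam1, general endothelial genes, differed by -0.03 ± 0.21 and -0.19 ± 0.16 (adjusted p = 0.982 and 0.718), while a second Kdr probe gave 0.69. Of 29 fibrosis and stellate cell genes 2 fell, Loxl1, which crosslinks elastin, by 1.19 ± 0.23 (adjusted p = 0.0334, 0.0617 with the block, 0.426 with normexp, 0.111 in the fit of all 12 arrays and up to 0.0952 with 1 of 7 livers left out) and Col6a3, a collagen VI chain, by 0.84 ± 0.18 (adjusted p = 0.0474, 0.0804 with the block, 0.152 with normexp, 0.101 in the fit of all 12 arrays and up to 0.124 with any 1 of the 8 livers left out). Adipocyte markers had the lowest list median, -1.25 with 0 of 8 called and 0 with an unadjusted p under 0.05, and E2f1-labelled replicate 1 had a mean list level of 3.52 against 0.11 to 0.85 in the other 3.

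Called genes were not spread evenly over the genome. By mm9 position, chromosome 14 had 44 of 780 tested genes called (5.64%), chromosome 8 had 39 of 1090 (3.58%), chromosome 4 had 44 of 1259 (3.49%) and chromosome 7 had 43 of 1497 (2.87%), against 2.00% of all genes. Chromosomes X (5 of 682, 0.733%) and 11 (11 of 1476, 0.745%) had the lowest shares among chromosomes with over 100 tested genes. In windows of 10 Mb, 127 of 277 held 0 called genes, and 23 windows with at least 5 calls held 170 called genes of 2892 tested. The first 10 Mb of chromosome 14 held the most, 15 of 36 tested (41.7%), 2 higher and 13 lower. Most of the 15 carry only predicted-gene or probe names, so transcripts shared between probes cannot be told from separate genes, and Pdhb and Dnase1l3 are the 2 that rose. Acox2, a peroxisomal oxidase of bile acid synthesis, and Cfap20dc lie there too. Chosen after their values were seen, they were lower by 0.82 ± 0.16 on the log2 scale (adjusted p = 0.0347) and by at least 2.05-fold (adjusted p = 9.98e-05). The next windows were chromosome 4 from 130 to 140 Mb (13 of 188, 6.91%), chromosome 4 from 140 to 150 Mb (11 of 144, 7.64%), chromosome 7 from 0 to 10 Mb (10 of 92, 10.9%) and chromosome 8 from 40 to 50 Mb (10 of 83, 12.0%).

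The neighbourhoods of both targeted genes had a higher share of called genes than stretches farther away on the same chromosomes. Within 2 Mb of E2f1 on chromosome 2, 7 of 86 genes were called (8.14%), and beyond 20 Mb 10 of 1112 (0.899%). BC029722 read 4.02, 4.31, 4.18 and 4.11 in E2f2-labelled livers and 1.91, 1.84, 1.85 and 2.71 in E2f1-labelled livers, with wild type livers at 4.11 ± 0.17 (SD), a difference of 2.08 ± 0.21 (adjusted p = 0.000955). Rprd1b, 3.52 Mb from E2f1, read 3.48, 3.54, 3.71 and 3.65 against 1.98, 2.24, 1.80 and 1.71, with wild type livers at 3.33 ± 0.19 (SD), and a second Rprd1b probe gave -0.08. In both, E2f1-labelled livers alone stood away from wild type. Rem1, a Ras-like GTPase, was above background on 4 of 4 E2f1-labelled arrays only, at least 3.34-fold lower in E2f2-labelled livers (adjusted p = 0.0011, and 0.148 with normexp background correction), and Ahcy lies 0.50 Mb from E2f1.

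On chromosome 4, 6 of 75 genes within 2 Mb of E2f2 were called (8.00%), 31 of 652 within 20 Mb (4.75%) and 12 of 606 beyond (1.98%). FJ654066 read 2.64, 2.62, 2.13 and 1.65 in E2f2-labelled livers against 6.80, 6.39, 8.03 and 8.03 in E2f1-labelled livers and 7.53 ± 0.60 (SD) in wild type livers, a difference of -5.05 ± 0.40 (adjusted p = 0.00024). Ncmap, a myelin-associated membrane protein 0.82 Mb from E2f2, read -3.65, -2.82, -2.80 and -4.71 against 1.28, 0.53, 0.90 and 0.17, with a wild type mean of 0.18, and fell by 4.21 ± 0.42 on the log2 scale (adjusted p = 0.000942). Stmn1, the microtubule regulator stathmin, read 0.22, 0.05, 0.05 and -0.01 against 2.73, 1.87, 2.02 and 1.91, with wild type livers at 3.46 ± 0.49 (SD), and fell by 2.05 ± 0.20 (adjusted p = 0.000861). In these 3 genes E2f2-labelled livers lay below both other groups. Extl1 went the other way, higher by 1.815 ± 0.194 (adjusted p = 0.00123, and 0.0562 in the fit of all 12 arrays). Its E2f2-labelled mean (1.09) lay above the E2f1-labelled (-0.72) and wild type means (-1.86). Rps6ka1, a kinase of the MAPK pathway, differed by 1.51 ± 0.19 (adjusted p = 0.00333), and there E2f1-labelled livers (2.71) lay below E2f2-labelled (4.22) and wild type livers (4.20). Zfp982 and Fbxo44, described above, lie 11.14 and 11.78 Mb from E2f2, and Zfp933, another zinc finger gene of that stretch, differed by -2.56 ± 0.18 (adjusted p = 0.000113). A second Zfp933 probe gave 0.50 (adjusted p = 0.266). The strain origin of these segments was not measured, and its part in the differences was not tested.

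**Figure D5:**
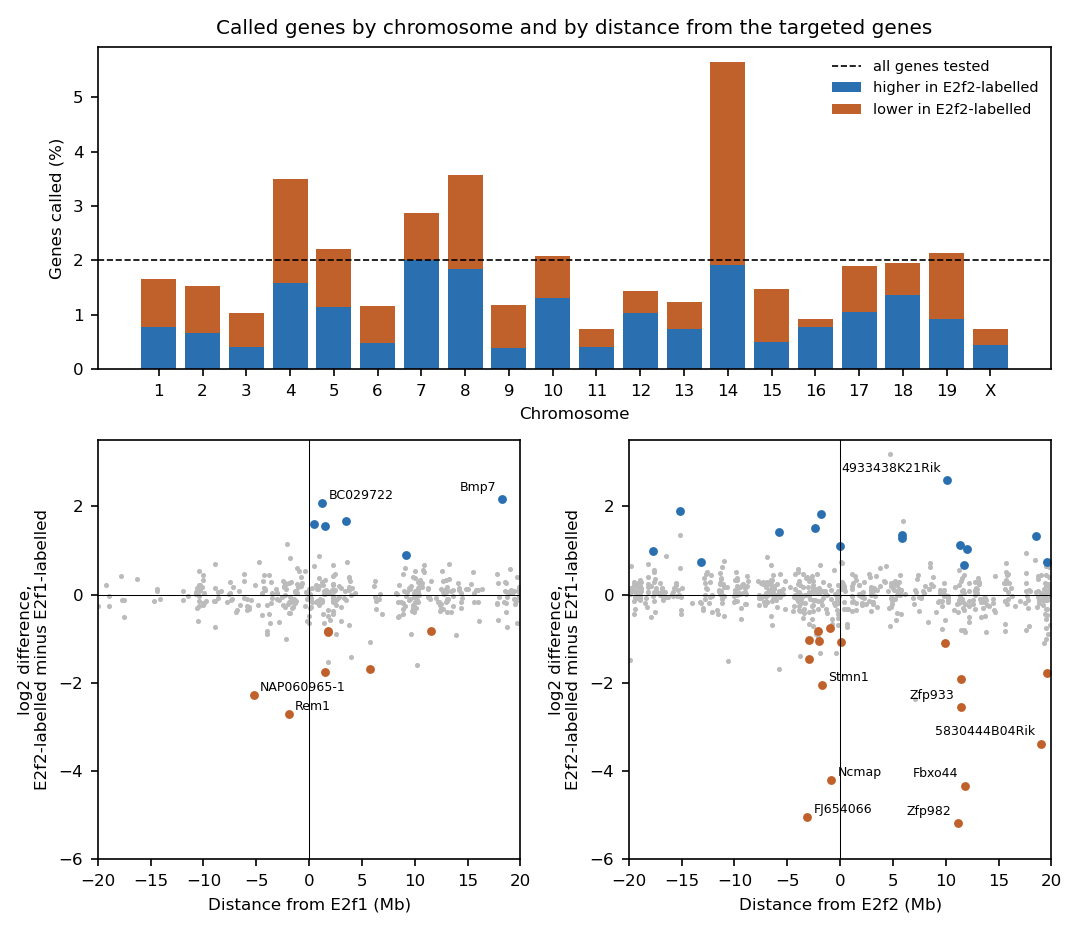
Top, percent of tested genes called on each chromosome, in blue for higher and orange for lower in E2f2-labelled livers, with a dashed line at the 2.00% of all genes. Bottom, log2 difference (E2f2-labelled minus E2f1-labelled) of each tested gene against its distance in Mb from E2f1 (left) and E2f2 (right), with called genes in colour and those beyond 2 in either direction named.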

How the data were processed

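RNA of 12 mouse livers was measured on one-colour Agilent arrays (mm9 design), 1 per mouse. Per the file headers, the deposited signal used is a linear intensity from which background was already subtracted. The submitters' processing notes name Agilent Feature Extraction 10.7.3.1 as the software. The deposited series matrix holds log2 values, used as an alternative only, and the deposited flags for spots above background and for outlier spots have no scale of their own. Any further step of the authors is not given here. Groups came from titles. Control and outlier spots were left out, and log2 signals were scaled by each array's 75th percentile. A probe was tested where 3 or more of the 4 arrays of either group had it well above background (27666 probes), and the brightest stood for its gene. Names came from RefSeq accessions for 28361 probes, from a current symbol for 3186, from a synonym for 270 and otherwise from the file. The fit used limma 3.58.1 in R 4.3.3 on 8 arrays, with 6 residual and 3.42 prior degrees of freedom, and 42 genes had a missing value. Values beside wild type come from a fit of all 12 arrays. Replicate number is the slide: same-numbered arrays deviated together (r = 0.27, 0.20, 0.44 and 0.43), so blocked values are given where they end a call. Promoters are RefSeq's. Tables were read with Python 3.11.15 (pandas 2.3.3), and figures drawn with matplotlib 3.10.9.

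The rule for naming genes took the targeted genes with Cpt2, then the 15 largest rises and falls with a gene symbol and no overlap, called and first members of each list, genes above background in 1 group only, called genes within 5 Mb of E2f1 or E2f2 and members of families with at least 4 calls; others are marked. Members and lists were chosen with earlier results of these data known. On simulated data with 20095 genes and 200 changed, the fit recovered 43.3% of log2 changes of 1, 91.0% of 2 and 98.5% of 3. It made 162 calls there, of which 7 were false. The simulated noise was normal and independent, without slide effects or a background floor, so these rates need not hold for the real arrays. Alternatives were quantile and median scaling, normexp (offset 50), series matrix values, other filters, outlier spots kept, mean of probes, all 12 arrays, the replicate block, array weights and each array left out.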

Additional observations from a re-analysis of the deposited data

Results flagged for a closer look

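A liver far from the other 3 of its group, by the gap to its nearest neighbour over the range of the group, was found in 24 of 512 groups of 4 values among the named genes and list levels. Chance alone marks about 1 group in 20, which is 25.6 of 512. In E2f1-labelled livers, replicate 2 was lowest for the mean level of conjugation enzymes and NRF2 targets (3.75), Atp6v0d2 (-3.13), Hamp (3.31) and Jak2 (1.39), and highest for the Kupffer cell gene Timd4 (0.94). Replicate 1 was highest for the mean level of fibrosis and stellate cell genes (1.37), Col6a3 (-0.064), Extl1 (-0.39) and Rps6ka1 (3.21). Replicate 3 was lowest for Cyp2b13 (-4.18) and highest for Slc47a1 (2.37). Replicate 4 was highest for BC029722 (2.71) and lowest for Serpina4-ps1 (3.29). In E2f2-labelled livers, replicate 3 was lowest for the mean level of mitosis and G2/M genes (-1.96), Saa2 (8.26), Samd4 (-2.82) and Phyhip (-5.40), and highest for Abhd1 (0.37) and the globin gene Hba-a1 (7.51). Replicate 4 was lowest for the mean level of T and NK cell markers (-0.94) and for Hsp90b1 (6.66). Replicate 1 was highest for Mme (-3.98) and lowest for Rab6b (-5.93) and Slc22a27 (-5.96), all 3 at values below background.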

How the results depend on the processing

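The 402 calls became 411 with quantile scaling, 400 with median scaling, 390 with the series matrix, 395 with outlier spots kept, 440 with the mean of probes, 418 with array weights, 334 with all 12 arrays, 311 with normexp and 276 with probes above background on all 8 arrays. Without a filter on dim probes, which tests 34600 names, 196 were called (87 higher, 109 lower). Leaving out 1 array gave 243 to 326 calls (116 to 164 higher, 125 to 167 lower). With the replicate number as a block 455 genes were called, 310 of them among the 402. The E2f2 difference of 1.22 was not called without the filter (adjusted p = 0.0693) or with the block (0.0731), and ran from 1.09 to 1.39 with 1 array left out. E2f1 was not called under any of the 19 alternatives. Beside the values given with the genes, the block ended the calls of Ly6k (adjusted p = 0.0645), Fam205a2 (0.0562), Phyhip (0.0953), Ankrd2 (0.0678) and Slc22a27 (0.0554). Among all list genes it ended 9 calls and added 16, Cyp8b1 (0.0492) and those given with the genes above among them. The other added calls were Csad (methionine list), Flt3 (dendritic cell list) and Socs1 (growth hormone list), all higher. Acad12 (fatty acid oxidation), Lpl (lipid droplets), Sardh (methionine list), Ccl24 (cytokines), Slc1a2 (pericentral list) and Cyp2d22 (cytochrome P450) were added as lower. Over the alternatives the list medians ran from -0.62 to -0.31 for cytochrome P450, -1.18 to -0.37 for female-biased, 0.14 to 0.34 for male-biased and -0.24 to 0.17 for mitosis genes, one of the lists whose median changed sign. Mcm3 turned to -0.87 with normexp, and Zfp933 to 0.50 where only its other probe passed the filter on 8 arrays. The cause was not tested for Mcm3. In single-gene calls 283 of the alternative values lost significance and 10 gained it. Signals near background limit the dim genes: Wdr72, Trim12a and the others at 0 of 4 arrays in a group have a bound only. In genes at 1 of 4 arrays in a group, such as Dct, Sall2, Nuggc and Loxl1, most values of the dim group are not above background. The sizes of their differences are therefore uncertain.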

Other observations

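By symbol, 4 of 263 tested Slc transporter genes (1.52%) and 10 of 305 tested Zfp zinc finger genes (3.28%) were called, beside 6 of 73 Cyp genes (8.22%) and 2.00% of all genes. The Slc share lies near that of all genes. Slc22a27, of the organic anion transporters, was at least 2.11-fold lower in E2f2-labelled livers (adjusted p = 0.0255), above background on 3 of 4 E2f1-labelled and 4 of 4 wild type arrays. Slc7a2, the cationic amino acid transporter of the liver, read 1.06 ± 0.20 (SE) higher (adjusted p = 0.0326), and Slc47a1, which exports organic cations into bile, 0.84 ± 0.15 lower (adjusted p = 0.0221). Each of these 3 calls ended without any 1 of 6 or 7 livers, with adjusted p up to 0.0948, 0.0926 and 0.0646. The Slc22a27 call also ended with normexp background correction (0.209) and the Slc47a1 call in the fit of all 12 arrays (0.11). Zfp69, a zinc finger gene of chromosome 4, was at least 1.87-fold higher (adjusted p = 0.000955), above background on 4 of 4 E2f2-labelled arrays and on 0 of 4 in each other group, but was not called with normexp background correction (adjusted p = 0.292).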
